A study of Mus musculus with 9 samples.

Results

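Proteasome subunit genes were followed through a RIPiT-seq experiment on WDR5, a subunit of the MLL histone methyltransferase complexes that also binds RNA. Members were the rows of the deposited expression table whose gene symbol starts with Psm, a letter from a to g and a digit. This rule found 49 of 24132 rows: 8 alpha and 11 beta subunits of the core particle, 6 ATPases and 14 non-ATPases of the regulatory particle, 4 activators, 1 inhibitor, 4 assembly chaperones and Psmc3ip. Psmc3ip encodes a recombination protein named for its interaction with Psmc3 and is not a proteasome subunit, so the rule held 48 genes of the proteasome. The rule used symbols and no measured value.

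The cells were mouse embryonic stem cells (ESCs) of a 129/B6 F1 hybrid, grown without feeders and with LIF. The empty vector line was infected with a lentivirus that carried no tagged WDR5. The WT line expressed human wild type WDR5 with FLAG and HA tags, and the F266A line expressed the tagged human protein with alanine in place of a phenylalanine in its RNA binding pocket. Isolated clones with tagged protein near the level of the mouse protein were used for the tagged lines, and the F266A construct was shorter at its N-terminus. All 3 lines still had their own mouse WDR5. Cells were fixed with formaldehyde, and complexes were purified through the FLAG tag and then the HA tag. Each line had 2 libraries of purified RNA (IP) and 1 of input RNA, which makes 9 libraries. Values are RPKM, which scale reads by transcript length and by the mapped reads of the library.

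The proteasome is the main protease of the cytosol and nucleus and degrades proteins that carry ubiquitin chains. Its barrel-shaped core has outer rings of alpha subunits, which gate the entrance, and inner rings of beta subunits, some of which cleave peptide bonds. A regulatory particle caps the barrel, where non-ATPase subunits recognise and deubiquitinate substrates and a ring of ATPases unfolds them. Interferon-gamma induces beta subunits that replace the constitutive catalytic ones and form the immunoproteasome, which favours peptides for antigen presentation. Embryonic stem cells are known for high proteasome activity, and transcription of most subunit genes is raised together by the factor Nfe2l1 when the protease is impaired.

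The catalytic beta subunits come in pairs, and their promoters are shown because the members of each pair differed widely in level. The windows hold the 250 bases before the annotated start, read 5′ to 3′ on the gene's strand from RefSeq on GRCm38.p6, with motif matches in capitals. Psmb5, which encodes the chymotrypsin-like subunit, has its window at chr14:54617996-54618245 on the minus strand, and Psmb6, the caspase-like subunit, at chr11:70525107-70525356 on the plus strand. Their interferon-induced counterparts Psmb8 and Psmb9 have theirs at chr17:34197945-34198194 on the plus strand and chr17:34187331-34187580 on the minus strand. The capitals mark TGACNNNGC (the antioxidant response element core) in Psmb5 and Psmb6, TTCNNNGAA (the gamma-activated sequence core) in Psmb8, and the reverse complement of CCAAT in Psmb9.
Psmb5: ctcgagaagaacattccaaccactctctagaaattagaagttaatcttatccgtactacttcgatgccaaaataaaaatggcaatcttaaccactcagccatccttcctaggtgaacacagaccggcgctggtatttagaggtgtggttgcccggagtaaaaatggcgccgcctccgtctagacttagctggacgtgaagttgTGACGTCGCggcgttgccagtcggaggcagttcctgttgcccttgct
Psmb8: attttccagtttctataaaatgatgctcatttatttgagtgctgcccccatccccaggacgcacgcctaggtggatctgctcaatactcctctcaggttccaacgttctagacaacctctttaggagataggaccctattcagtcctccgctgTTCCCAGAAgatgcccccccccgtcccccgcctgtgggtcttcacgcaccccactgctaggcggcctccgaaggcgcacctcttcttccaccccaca
Psmb6: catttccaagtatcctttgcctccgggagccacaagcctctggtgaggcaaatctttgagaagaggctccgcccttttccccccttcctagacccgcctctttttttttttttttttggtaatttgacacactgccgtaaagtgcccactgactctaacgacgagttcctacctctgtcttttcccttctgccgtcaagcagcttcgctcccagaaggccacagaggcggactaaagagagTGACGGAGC
Psmb9: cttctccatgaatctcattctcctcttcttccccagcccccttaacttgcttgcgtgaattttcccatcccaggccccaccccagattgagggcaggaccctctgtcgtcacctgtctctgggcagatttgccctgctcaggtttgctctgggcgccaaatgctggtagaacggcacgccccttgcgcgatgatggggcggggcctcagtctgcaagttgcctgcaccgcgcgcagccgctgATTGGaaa

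The 4 motifs were searched on both strands of the members' windows. The promoter table had an entry for 41 of the 49 members. CCAAT was in 15 of the 41 windows (36.6%) and in 37.5% of all 27025 windows. TGACNNNGC was in 5 (12.2% against 11.5% of all), in Psmb5, Psmb6, Psmc6, Psmd9 and Psmd12. TTCNNNGAA was in 2 (4.88% against 8.13%), Psmb8 and the assembly chaperone Psmg1. The interferon-stimulated response element core (GAAA, any 2 bases, GAAA) was in 3 (7.32% against 3.46%), namely Psmb3, Psmd4 and Psmd9, none of them an interferon-induced catalytic subunit. Each of the 4 windows printed held 1 match in all, so no matches overlapped there. The window of Psmb10, the interferon-induced counterpart of Psmb7, is not printed and held none of the 4 motifs.

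The members lay on 16 chromosomes of mm9. The closest neighbours were Psme1 and Psme2, which encode the partner subunits of an activator ring and lie 5911 bp apart on chromosome 14. Psmb5 and Psmb11 lay 7295 bp apart on the same chromosome, and Psmb9 and Psmb8 lay 9956 bp apart on chromosome 17 (chr17:34318932-34324709 and chr17:34334666-34338399). Exons of 12 members shared bases with those of another gene, 11 of them with a gene on the opposite strand, and the library kit did not keep strand. Transcripts of 8 members (Psma3, Psma4, Psma5, Psmb3, Psmb5, Psmd2, Psmd11 and Psme2) had stretches of at least 200 bases that aligned elsewhere in the genome with at least 95% identity, so reads of these genes may be shared with copies. Of the other members, 38 were aligned without such a copy and 3 (Psma7, Psmb4 and Psmb9) were not aligned.

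Before the members are described, several libraries need a remark. The depth, estimated from the RPKM that 1 read is worth, was 37500000 to 50200000 mapped reads in the inputs and 13400000 to 27300000 in the IPs. All 10 ESC markers checked were present, with summed RPKM of 536 to 600 in the inputs and 624 to 850 in the IPs. The summed RPKM of 10 primitive endoderm markers was 21.9 in the F266A input and 30.1 in F266A IP replicate 2, but 8.37 in F266A IP replicate 1 and 7.85 to 9.41 in the other 6 libraries. Among them, Dab2 was at 3.02 and 5.43 and Col4a1 at 5.40 and 6.98 in the F266A input and IP replicate 2. In F266A IP replicate 1 these were at 0.916 and 1.03 and Gata4 at 0.695, between those values and the 0.0728 to 0.261, 0.279 to 0.731 and 0.0688 to 0.171 of the empty vector and WT libraries. Its sum was close to theirs because Lama1 and Lamb1, at 2.57 or more in every library, make up most of it. Foxa2 was at or below 0.096 throughout, and 5 of the 10 were below 1 in every library. The sum of 4 Y-linked genes was 7.42 to 9.50 in the empty vector line, 4.43 in the F266A input and 7.21 in F266A IP replicate 2, against 0.038 in F266A IP replicate 1 and 0.18 to 0.32 in the WT line. F266A IP replicate 1 therefore stood apart from the other libraries of its line, and the sources used here do not say whether it came from the same clone. Values without each F266A IP are therefore given beside many of the differences that involve this line. Of 10 fibroblast markers, 8 were below 1 in every library, and Fn1 alone, at 16.1 to 41.7, made up nearly all of their sum of 17.3 to 43.6. Wdr5 itself was at 5.85 to 9.54 in the inputs, 11.8 and 12.9 in the WT IPs and 8.18 to 10.5 in the other IPs.

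The mean levels of the members ran from near 0 to an RPKM of 28.3. The median of the members' mean RPKM over the 9 libraries was 7.49, and 46 of the 49 had at least 2 libraries with an RPKM of 1 or more. The 3 that did not were Psmb8, Psmb9 and Psmb11, so they entered no test across genes. By class, the median was 7.03 for the alpha subunits, 7.42 for the beta subunits, 7.67 for the ATPases, 8.41 for the non-ATPases and 12.8 for the activators. The assembly chaperones were lower, with a median of 3.29, and the inhibitor Psmf1 was at 1.46.

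The highest member was the activator Psme3, whose ring caps the core in the nucleus and opens it without ATP. Its RPKM was 21.9, 34.4 and 31.3 in the empty vector input and IPs, 19.1, 35.1 and 29.7 in those of F266A, and 20.7, 35.1 and 27.0 in those of WT. All 6 IPs exceeded all 3 inputs, and the mean over the 9 libraries was 28.3 ± 6.38 (SD). The next were Psma7 (19.99 ± 3.72), an alpha subunit, Psmd11 (18.2 ± 2.45), a scaffold of the regulatory particle's lid, and Psmd7 (18.1 ± 4.01), the partner of the lid's deubiquitinase. Ranges over the libraries overlapped for each pair of neighbours in the order of levels, so the order is fixed only between members farther apart.

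Within classes the spread was wide. Psma8, an alpha subunit known from testis that stands in for Psma7, averaged 1.45 ± 0.611 and reached 2.73 in empty vector IP replicate 1. Among the ATPases, which form a ring with 1 copy of each, means ran from 5.93 for Psmc6 to 13.4 for Psmc5. The non-ATPases ran from 1.11 for Psmd10, an assembly factor also called gankyrin, to 18.2 for Psmd11. The activator Psme2 averaged 1.25 although its ring partner Psme1 averaged 13.1, and Psme4, a large activator of another family, averaged 12.5. The chaperones ran from 1.72 for Psmg3 to 3.89 for Psmg2.

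**Figure D1:**
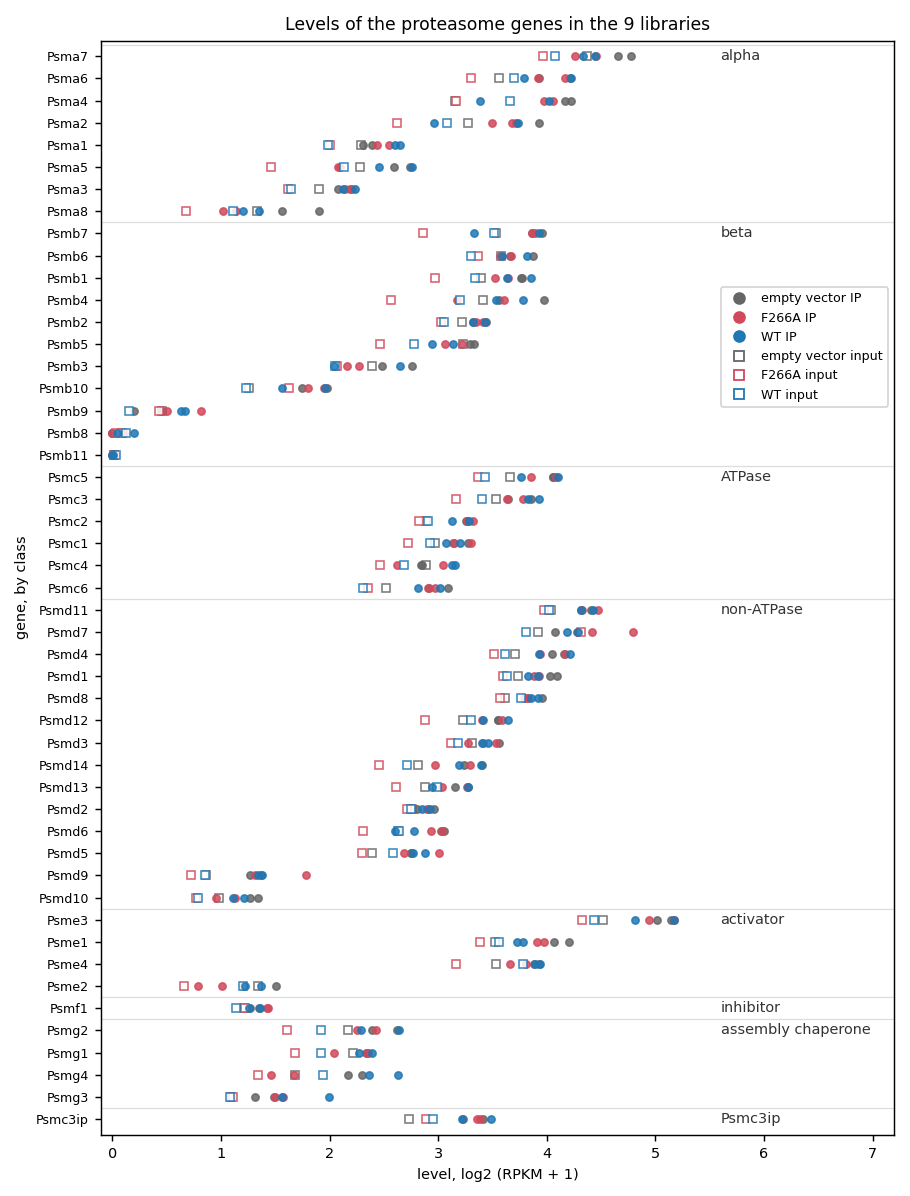
Levels of the 49 members as log2 (RPKM + 1) on the horizontal axis, 1 row per gene grouped by class and ordered by mean, with squares for the 3 inputs and circles for the 6 IPs, coloured by line. Psme3 has the highest mean RPKM at 28.3, and Psmb8, Psmb9 and Psmb11 lie at the left end.

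In each library the constitutive catalytic subunits far exceeded their alternatives. Psmb5, Psmb6 and Psmb7, the last of which encodes the trypsin-like subunit, averaged 7.42 ± 1.48, 11.2 ± 1.57 and 11.8 ± 2.87. Psmb8, which replaces Psmb5 in the immunoproteasome, was at 0.064, 0 and 0 in the empty vector input and IPs, 0.022, 0.080 and 0 in those of F266A, and 0.094, 0.030 and 0.15 in those of WT. In units of the lowest value above 0, scaled for depth, all lay within 0.056 of a whole number, with 5 as the highest, so they rest on few reads. Psmb11, the thymus form of the same subunit, was likewise listed at 0 in 3 libraries and reached 0.022 at most.

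Psmb9 and Psmb10 were higher than Psmb8. Psmb9, the counterpart of Psmb6, was at 0.373, 0.148 and 0.375 in the empty vector input and IPs, 0.35, 0.761 and 0.418 in those of F266A, and 0.116, 0.595 and 0.546 in those of WT. Psmb6 exceeded it in 9 of 9 libraries, by 15.4-fold to 92.5-fold. Part of Psmb9's exons (212 bases) overlap Tap1 on the opposite strand, and Tap1 lay between 0.144 and 0.606. Psmb10, the counterpart of Psmb7, was at 1.39, 2.36 and 2.93 in the empty vector line, 2.08, 2.85 and 2.48 in F266A and 1.35, 2.89 and 1.95 in WT. Psmb7 exceeded it by 3.0-fold to 7.72-fold, so Psmb10 was the only interferon-induced catalytic subunit above an RPKM of 1 in all 9 libraries. Of 10 other genes of antigen processing, 6 were below 1 in every library, among them Tap1 and Tap2, which carry peptides into the endoplasmic reticulum. H2-K1 and B2m, which form class I molecules, averaged 3.77 and 2.95.

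The first comparison asked which RNAs were more abundant in the purified fraction than in the input, over all 3 lines, the empty vector line included. On the log2 (RPKM + 1) scale, 39 of the 46 tested members were higher in the IPs by limma (adjusted p under 0.05) and 0 were lower. This share must be read against all genes, of which 56.4% were called higher (56.9% in either direction) and 94.8% had a difference above 0. The share rose with level. Among genes with a mean RPKM of at least 5, 31 of 32 members (96.9%) and 82.2% of all genes were called in either direction. At an unadjusted p under 0.05 there were 42 members, and 64.6% of all genes. Among the fits with a single IP left out, the count of 39 and the share of all genes both fell furthest for the empty vector IPs. The members' median difference was 0.38, against 0.30 for all genes. When each library was centred on its median the members' median was 0.07 and 0 were called (1.56% of all genes), with 5 at an unadjusted p under 0.05 (10.9%, against 21.5% of all genes). With quantile normalization it was 0.03 and 0 were called (2.44% of all genes), with 4 at an unadjusted p under 0.05 (8.7%, against 18.9%). Most of the members' difference was thus one that all genes shared.

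The class counts were 8 of 8 for the alpha subunits, 7 of 8 for the tested beta subunits, 5 of 6 for the ATPases, 11 of 14 for the non-ATPases, 3 of 4 for the activators, 4 of 4 for the chaperones and 0 of 1 for the inhibitor. Psma4 had the largest difference, 0.64 (SE 0.138, adjusted p = 0.0074). Psme3 followed with 0.61, Psmd9, a chaperone of the ATPase ring, with 0.59, Psma2 with 0.59, Psmd14, the lid's deubiquitinase, with 0.58, and Psmc6 with 0.56. Psme2 had the smallest difference, 0.12 (SE 0.109, adjusted p = 0.363), and Psmf1 had 0.16 (adjusted p = 0.122). The value of Psme2 depended on single libraries. Its empty vector IP replicates 1 and 2 differed from their input by 0.17 and -0.14, and the other IPs from theirs by 0.021 to 0.35. All 6 IPs lay above all 3 inputs in RPKM for 25 of the 46 members (54.3%), against 42.2% of all genes. Across the 46 members, the difference had a Pearson r of -0.19 with log2 exon length and of 0.20 with log2 mean RPKM, as a description over genes that share the same libraries.

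Other genes of the pathway, from a list of 32 of which 28 could be tested, gave 19 higher and 0 lower in the same comparison, with a median of 0.37, beside the 56.4% of all genes called higher and their median of 0.30. In alternatives chosen after seeing the data, 1 was called when each library was centred on its median, and 2 (1 higher and 1 lower) with quantile normalization. The highest was Pomp, which guides assembly of the core, with a difference of 0.95 (SE 0.104, adjusted p = 0.0021). Zfand2a (0.69), Ufd1l (0.67) and Vcp (0.64), the last of which extracts ubiquitinated proteins together with Ufd1l, followed. The transcription factor Nfe2l1, introduced above, had a difference of 0.11 (adjusted p = 0.361).

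Scores of single IPs, which are log2 (RPKM + 1) of an IP minus that of the input of the same line, were above 0 for 45 and 44 of the 46 members in the empty vector replicates (87.7% and 88% of all genes), 46 and 46 in F266A (89.2% and 96.3%), and 46 and 40 in WT (85.5% and 89.8%). The members' median was 0.38 and 0.31 in empty vector IP replicates 1 and 2, where all genes had 0.27 and 0.26. It was 0.59 and 0.47 in the F266A replicates (all genes 0.39 and 0.35) and 0.42 and 0.29 in the WT replicates (all genes 0.27 and 0.27). The empty vector line, which has no tagged protein, thus had scores close to those of WT. Replicate 2 scored below replicate 1 for 39 of the 46 members in the empty vector line, 30 in F266A and 36 in WT, compared with 53.2%, 57.0% and 49.0% of all genes. The greatest such gap was that of Psma2 in WT, whose RPKM was 12.3 in replicate 1 and 6.79 in replicate 2.

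**Figure D2:**
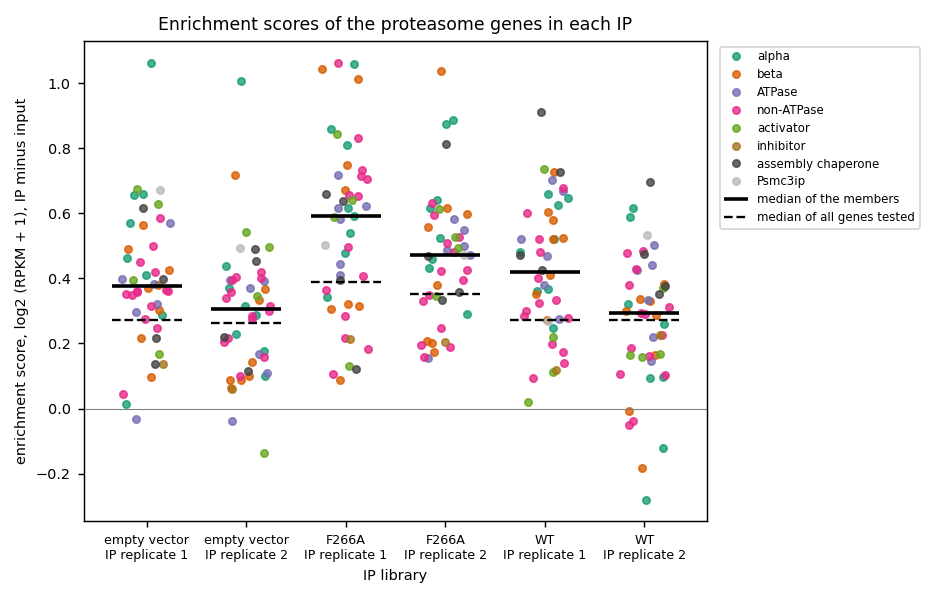
Enrichment scores of the 46 tested members in each of the 6 IPs, as log2 (RPKM + 1) of the IP minus that of the line's input, with points coloured by class. Solid bars are the members' medians (0.29 to 0.59) and dashed bars the medians of all genes tested (0.26 to 0.39).

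The inputs differed too. Each line had 1 input, so these differences have no replicate check. Of the 46 members, 36 had their lowest input value in F266A (78.3%, against 58.9% of all genes) and 4 had their highest there (8.7%, against 22.9% of all genes), namely Psmb10, Psmd7, Psmf1 and Psmg3. The median difference of the members between the F266A and empty vector inputs was -0.26 on the log2 (RPKM + 1) scale, and -0.12 over all genes. Psmb4, a beta subunit without catalytic activity, had the lowest, -0.85, with an input RPKM of 4.90 in F266A, 9.65 in the empty vector line and 8.17 in WT. Psmd7 had the highest, 0.40. The F266A input also had the highest sum of endoderm markers among the inputs, as given above, and their part in these differences was not tested.

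The comparison of WT with F266A IPs asked which RNAs differed between the tagged lines, without subtraction of the inputs. These lines also differ in clone and in the N-terminus of the construct. Effects of the mutated residue cannot be told apart from those. Among the 46 members, 1 differed by limma, and 45 did not pass. It was Psmg4 (chr13:34254833-34270041 on mm9), which encodes an assembly chaperone of the alpha ring that acts with the product of Psmg3. Of all genes, 1.16% were called in this comparison (0.777% higher in WT), and 5 members had an unadjusted p under 0.05, where 15.5% of all genes did (3 to 6 members with single IPs left out, against 11.7% to 18.8% of all genes). The differences were above 0 for 23 of the 46 members and for 52.1% of all genes.

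Psmg4 reached an RPKM of 4.14 and 5.20 in WT IPs, 1.75 and 2.19 in those of F266A, and 3.91 and 3.49 in those of the empty vector. Both F266A values were below all 4 others. The inputs had the same order of lines, with F266A at 1.53, the empty vector at 2.20 and WT at 2.83. The difference of WT from F266A was 0.93 (SE 0.137, adjusted p = 0.0319), and that of F266A from the empty vector was -0.66 (SE 0.137, adjusted p = 0.0401). The gene is short, with 554 bases of exons in the annotation, so its values rest on few reads.

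Both calls depended on which libraries were included, while the direction did not change. In both comparisons the share of all genes called also fell when a WT or empty vector IP was left out. That loss was thus not particular to Psmg4. Neither call was made with no filter, and that of F266A against the empty vector was also lost with quantile normalization. The WT difference was 0.83 (adjusted p = 0.0480) without F266A IP replicate 1 and 1.04 (adjusted p = 0.0406) without replicate 2. It was not called without WT IP replicate 1 (adjusted p = 0.0645), WT IP replicate 2 (0.199), empty vector IP replicate 1 (0.0776) or replicate 2 (0.0784). The F266A difference from the empty vector did not pass once any of the 6 IPs was left out, with adjusted p of 0.0839 and 0.0501 without F266A replicates 1 and 2, 0.299 and 0.190 without empty vector replicates 1 and 2, and 0.0530 and 0.0537 without WT replicates 1 and 2.

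After subtraction of each line's input, the difference of WT from F266A for Psmg4 was 0.33 (SE 0.237, adjusted p = 1.0), and that of F266A from the empty vector was -0.33 (SE 0.237). Without F266A IP replicates 1 and 2 the first was 0.23 and 0.44, and the second was -0.22 and -0.43. The first was 0.20 without WT IP replicate 2. Neither passed, and the standard error was larger than in the direct comparison.

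At the other end, Psmd7 had a difference of WT from F266A IPs of -0.37 (SE 0.156, adjusted p = 0.307). WT IPs had an RPKM of 18.6 and 17.2, F266A IPs 20.4 and 26.7, and empty vector IPs 18.4 and 15.8. The difference was -0.56 (adjusted p = 0.119) without F266A IP replicate 1 and -0.18 (adjusted p = 0.640) without replicate 2. Its F266A input (18.9) was also above the empty vector (14.1) and WT (13.0) inputs. F266A values were thus the highest in both fractions, but the differences did not pass the test. Both WT IPs lay above both F266A IPs for 9 of the 46 members (19.6%, against 23.3% of all genes) and below them for 4 (8.7%, against 18% of all genes).

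**Figure D3:**
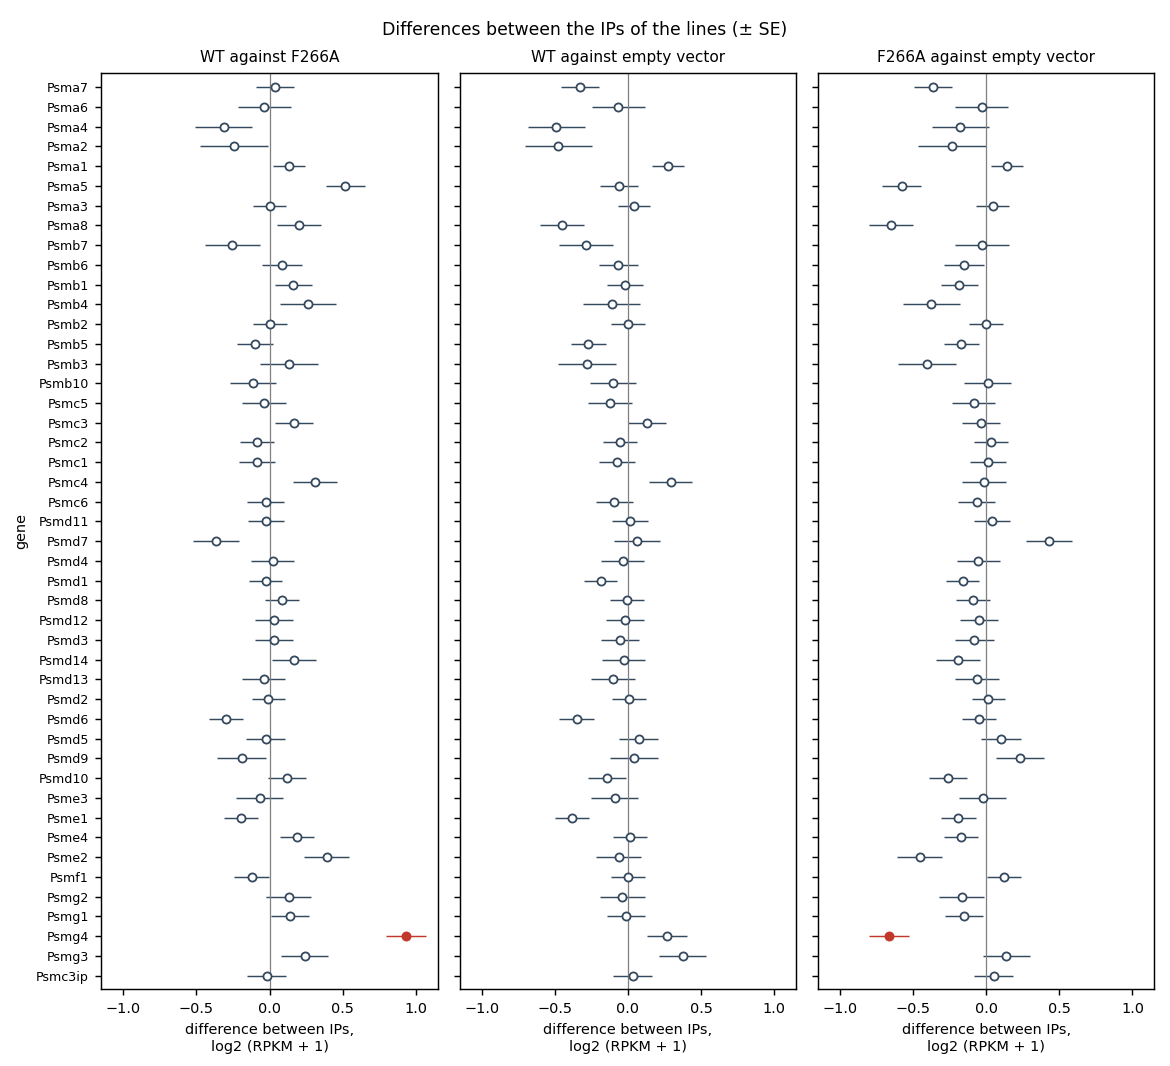
Differences between the IPs of the lines in log2 (RPKM + 1) for the 46 tested members, with bars of 1 SE from limma, positive where the line named first is higher. Psmg4, drawn filled, is the only member called, at 0.93 for WT against F266A and at -0.66 for F266A against the empty vector.

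F266A and empty vector IPs differed for 1 member, Psmg4, as above, where 4.55% of all genes were called and 3.38% were called lower. Differences leaned to lower values in F266A: 33 of 46 were below 0, with a median of -0.06, while 49.1% of all genes were above 0. The members' median was -0.14 without F266A IP replicate 1 and -0.02 without replicate 2. Both F266A IPs were below both empty vector IPs for 15 members (32.6%, against 28.6% of all genes) and above both for 4 (8.7%, against 25.9%). Among the alpha subunits, Psma8 and Psma5, chosen after their values were seen, came closest to the threshold. For Psma8, F266A IPs had 1.02 and 1.20 and empty vector IPs 2.73 and 1.95, a difference of -0.65 (SE 0.149, adjusted p = 0.0501), which was -0.59 without F266A IP replicate 1 and -0.71 without replicate 2. For Psma5, F266A IPs had 3.21 and 3.28 and empty vector IPs 5.67 and 5.03, a difference of -0.58 (SE 0.133, adjusted p = 0.0509), which was -0.57 and -0.59 without these. Both passed by limma with pseudocounts of 0.1 and 0.01 in place of 1 (adjusted p of 0.0489 and 0.0486 for Psma8, 0.0490 and 0.0490 for Psma5). Neither was called with no filter, with quantile normalization or with each library centred on its median. Without the trend in limma, Psma8 was called and Psma5 was not. Both genes had their lowest input value in F266A, 0.597 and 1.75, so that the F266A line was low in each fraction.

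Psmd7 had the most positive difference of F266A from the empty vector, 0.43 (SE 0.156, adjusted p = 0.170). It was 0.62 (adjusted p = 0.0652) without F266A IP replicate 1 and 0.24 (adjusted p = 0.436) without replicate 2. Of the other genes of the pathway, AI314180, the mouse Ecm29 gene for a proteasome adaptor, was called higher. F266A IPs had 3.79 and 4.10 and the IPs of the empty vector 1.54 and 1.76 for it, a difference of 0.90 (SE 0.135, adjusted p = 0.0187). Its inputs were ordered alike, at 2.97 in F266A, 1.36 in the empty vector and 1.53 in WT. The difference was 0.94 without F266A IP replicate 1 and 0.85 without replicate 2. It did not pass when either empty vector IP was left out, where the share of all genes called also fell. With no filter it did not pass either (adjusted p = 0.131 by limma).

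The comparison of WT with empty vector IPs asked whether tagged WDR5 retrieved RNA beyond the background of the purification. By limma 0 members were called, as were 0 of all 9787 genes (0%). At an unadjusted p under 0.05 there were 7 members, and 5.69% of all genes. This count rested on single libraries: it was 0 without empty vector IP replicate 1 (2.83% of all genes), 2 without empty vector IP replicate 2 (2.8%), 10 without WT IP replicate 1 (7.1%) and 2 without WT IP replicate 2 (7.03%). Differences were above 0 for 13 of the 46 members, and for 52.1% of all genes. Both WT IPs exceeded both empty vector IPs for 5 members (10.9%, against 21.2% of all genes) and lay below them for 8 (17.4%, against 17.8%). The most positive difference was that of Psmg3, 0.38 (SE 0.161, adjusted p = 0.868), from 2.99 and 1.95 in WT and 1.81 and 1.48 in those of the empty vector. It was 0.16 without WT IP replicate 1 and 0.59 without replicate 2. The most negative was that of Psma4, -0.49 (SE 0.195, adjusted p = 0.849), from 15.3 and 9.43 in WT and 17.7 and 16.9 in those of the empty vector. It was -0.81 without WT IP replicate 1 and -0.17 without replicate 2. The WT replicates of Psma4 differed from each other more than its higher WT value differed from the empty vector. All 8 tested beta subunits had differences below 0 in this comparison, between -0.28 and -0.0018, and none had an unadjusted p under 0.05.

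The input-corrected comparisons, in which the IP minus input difference of one line is set against that of another, called 0 members and 0% of all genes in each of the 3. At an unadjusted p under 0.05 there were 3 members for WT against F266A (2.65% of all genes), 2 for WT against the empty vector (1.77%) and 1 for F266A against the empty vector (2.48%). With single IPs left out, these counts and the shares of all genes both rose or fell, depending on the IP. Differences were above 0 for 10, 27 and 37 of the 46 members in these comparisons, and for 31.7%, 51.4% and 69.9% of all genes. For WT against F266A the lowest was Psmb7, -0.91 (SE 0.321), which was -0.92 and -0.90 without F266A IP replicates 1 and 2. Its RPKM was 10.4, 14.2 and 9.05 in the WT input and IPs and 6.24, 13.6 and 13.9 in those of F266A. Here the low F266A input and the low WT IP replicate 2 both entered the difference.

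For WT against the empty vector the extremes were both alpha subunits. Psma1 had 0.58 (SE 0.189), with 2.97, 5.26 and 5.08 in the WT input and IPs and 3.89, 3.94 and 4.25 in those of the empty vector. Psma4 had -0.996 (SE 0.337), with 11.7, 15.3 and 9.43 in WT and 7.93, 17.7 and 16.9 in the empty vector. In both genes the WT and empty vector inputs differed in the direction opposite to the IPs. For F266A against the empty vector, Psmb7 was the most positive (0.64, SE 0.321) and Psmb10 the most negative (-0.36, SE 0.274). Without F266A IP replicates 1 and 2 the values were 0.66 and 0.63 for Psmb7 and -0.43 and -0.28 for Psmb10. With all 9 libraries the adjusted p was 1.0 for each of these 5 differences.

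**Figure D4:**
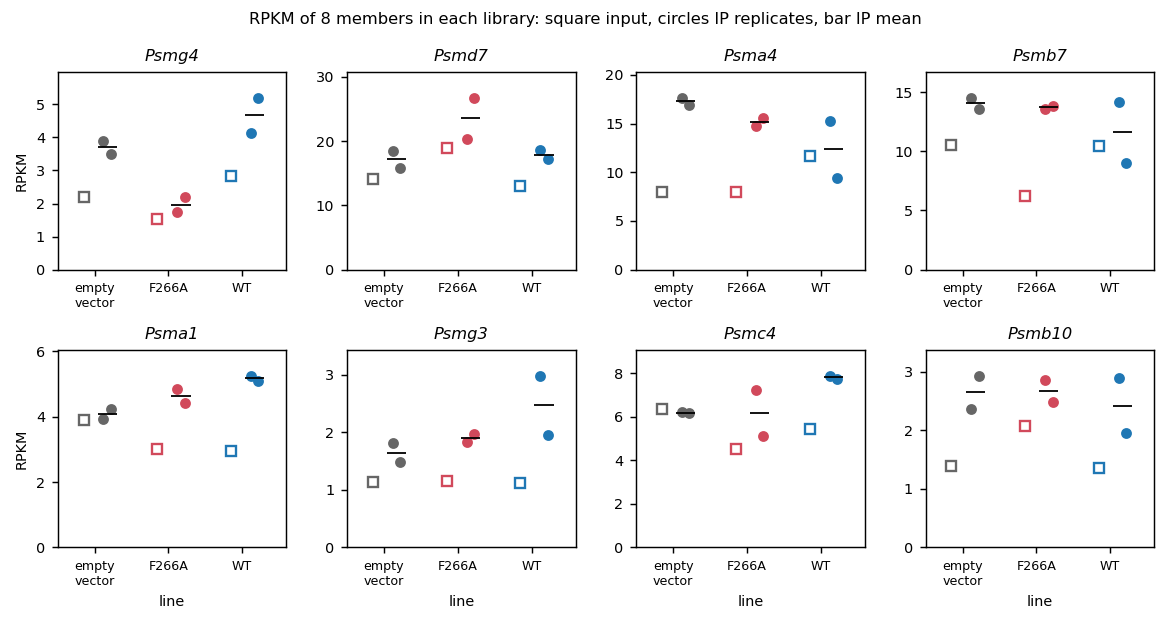
RPKM of 8 members in each library, with open squares for the input, circles for the IP replicates and a bar for the IP mean of each line, on axes that start at 0. Psmg4 is lowest in F266A in both fractions (1.53 in the input, 1.75 and 2.19 in the IPs), and Psmc4 is, among the 46 tested members, the one for which both empty vector IPs (6.22 and 6.19) lie below the input (6.38).

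The rule stated in the study for RNAs bound by WT, requires that the lower WT score is positive and exceeds each of the 4 scores from the other lines, and it has no error term. It was met by 3 of the 49 members (Psma1, Psmb9 and Psmg3), where 4.79% of all rows and 5.29% of the genes tested met it. Psma1 scored 0.66 and 0.62 with WT, against 0.54 or less in other lines. Psmg3 scored 0.91 and 0.48 in WT, and its highest other score, 0.47 in F266A IP replicate 2, was lower by 0.0074. Psmb9 scored 0.52 and 0.47 with WT and 0.38 or less elsewhere, from RPKM under 1.

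Which members met that rule depended on the input used. When the mean of the 3 inputs served for every line, 3 members met it (Psma1, Psmc4 and Psmg4, beside 4.35% of all rows), of which 1 was shared with the first set. With scores centred on their median, 4 members met it (8.16%, against 3% of all rows), where Psma3 joined the first set. With only WT IP replicate 2 or only replicate 1 in place of both, 7 members met it (14.3%), where 13.9% and 13.4% of all rows did. Without F266A IP replicate 1, or without replicate 2, 4 members met it (8.16%), where 8.19% and 7.03% of all rows did. Psma1 thus met the rule with either input, although its direct difference between the WT and F266A IPs was 0.13 (SE 0.109, adjusted p = 0.633 by limma), or 0.19 and 0.080 without F266A IP replicates 1 and 2.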

How the data were processed

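Libraries were grouped by GEO's labels. The authors aligned reads with TopHat 1.1.3 to mm9 and deposited RPKM from their own script, collapsed to RefSeq symbols. RPKM are not counts, so no count test was used. Differences were fitted with limma 3.58.1 in R 4.3.3 (lmFit, eBayes with trend) on log2 (RPKM + 1), which understates changes of low genes. The 9787 genes that reached an RPKM of 1 in 2 or more libraries were tested. Each line and fraction had 1 coefficient, which leaves 3 residual degrees of freedom, all from the IP pairs, and p-values were adjusted by Benjamini-Hochberg over all genes tested. The labels number the IPs without naming separate cultures, so p-values measure a spread that may be technical. In simulated data for WT against F266A IPs on 9787 genes, a log2 change of 1 was recovered for 47 of 50 genes and one of 0.5 for 11 of 50, with 8 false calls. Input-corrected, these were 21 of 50 and 1 of 50, with 2 false calls. Depth was estimated from the lowest steps of RPKM and covers counting error only. Positions came from GENCODE M1 on mm9, copies from minimap2 2.31-r1302. Named members were the 7 catalytic beta subunits, the highest and lowest of each class, up to 6 called and the extremes of each comparison, and those that met the study's rule. Members and lists were chosen with earlier results of these data known, and the Y-linked genes after seeing the data. Leaving out F266A IPs for the study's rule, and alternatives for Psma1, Psma5, Psma8, Psmc4, AI314180, input-corrected Psmg4 and the other genes of the pathway, were also chosen then. Alternatives covered pseudocount, filter, scaling, replicate block, trend and left-out replicates. Results of some genes on the lists are not reported here.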

Additional observations from a re-analysis of the deposited data

Results flagged for a closer look

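Psmc4, an ATPase of the regulatory particle, was singled out from the members because its scores differed in sign between lines. The empty vector scores were only slightly negative, at -0.031 and -0.038. The input-corrected differences below have an SE of 0.259. Both empty vector IPs (6.22 and 6.19 RPKM) were below their input (6.38), whereas the F266A IPs (7.25 and 5.14) were above theirs (4.51) and the WT IPs (7.90 and 7.74) above theirs (5.43). The mean score of F266A minus that of the empty vector was 0.40, and that of WT minus the empty vector was 0.49. Without F266A IP replicate 1, which stood apart from its line, the F266A difference was 0.19, and without replicate 2 it was 0.62. By limma the input-corrected difference for Psmc4 had an unadjusted p of 0.157 for F266A and 0.0945 for WT, and an adjusted p of 1.0 for each, so neither passed. Without F266A IP replicate 2 the unadjusted p was 0.0131 for F266A (adjusted p = 0.435), and without F266A IP replicates 1 and 2 that for WT was 0.0254 and 0.0256 (adjusted p = 1.0).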

How the results depend on the processing

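Of the counts of members recomputed under an alternative, 81 stayed within the limits set and 24 did not. The IP against input count of 39 became 21 of 49 with no filter (42.9%, against 15.9% of all genes). It was 0 with quantile normalization and with centred libraries (2.44% and 1.56% of all genes). There Psme2 turned to -0.10 and -0.19. The WT against F266A count of 1 became 0 with no filter (0% of all genes). It was also 0 with a mean RPKM of at least 5 (2.28% of all genes), where Psmg4 was not tested. The call of Psmg4 was also lost with some single replicates left out. The F266A against empty vector count of 1 became 3 with pseudocounts of 0.1 and 0.01 (4.45% and 4.52% of all genes) and 2 without trend (4.57%). It was 0 with no filter (0.00979% of all genes), with a mean RPKM of at least 5 (9.35%) and with quantile normalization (2.47%). Its call of Psmg4 was also lost with single replicates left out. The cause of these changes was not tested. The study's rule gave 7 without either WT IP replicate and 4 without either F266A IP replicate (range 4 to 7), against 3 with all. Leaving out a replicate can only keep or raise that count, because the rule takes the lowest WT score and the highest other score. The share of all rows that met the rule rose too, as given above. Replicate numbers did not pair the libraries (r of 0.01, 0.11 and 0.26 between lines). Under the replicate block the counts were 41 for IP against input (59.7% of all genes) and 1 for WT against F266A (1.57%). The count was 3 for F266A against the empty vector (6.2%), where Psma5 and Psma8 joined Psmg4 (adjusted p of 0.0375 and 0.0411 by limma). A replicate left out leaves a lone library in its group, which is then assumed to vary like the others. With 1 input per line, no input difference could be tested.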
